A study of Mus musculus with 8 samples.

Results

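The 9 genes described here, Drp2, Dmd, Utrn, Dag1, Sntb1, Sntb2, Sgca, Sgcb and Sgcd, encode proteins of the dystrophin-associated complex. They were picked by name from the 52636 genes of the count tables, with their levels in double and triple knockout samples already known. The contrast between those groups is therefore given for them as a description with no test. All 9 passed the filter on low counts, as did 17709 genes in all. The 8 samples come from mouse malignant mesotheliomas, tumours of the membrane that lines the chest and other body cavities. There were 2 double knockouts, in which the sample names give Nf2 and Cdkn2a as the targeted genes. In the 6 triple knockouts Bap1 is named as well. By these names, loss of Nf2 and Cdkn2a is shared by both groups. The series title calls the models conditional. Neither the Cre driver nor the animals' age and strain is given in the sources used here. The labels describe cells grown in RPMI medium with serum and insulin. Whether RNA was taken from such cultures or from tumour tissue, which would hold other cell types, is not clear. No number of animals or of separate cultures behind the samples is given, so the spread between samples may in part be technical.

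The dystrophin-associated complex ties the actin cytoskeleton to the basement membrane. Dystroglycan, the product of Dag1, binds laminin outside the cell and dystrophin or its relatives inside it. Sarcoglycans and sarcospan stabilise the complex in the membrane, while dystrobrevins and syntrophins gather signalling proteins on its inner face. It is best known from skeletal muscle, where loss of dystrophin or of a sarcoglycan causes muscular dystrophy, but dystroglycan and utrophin are also made in many other tissues.

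Of the 9 genes, 8 had a lower mean in the triple than in the double samples, and Sntb2 had a higher one. Drp2 and Sntb1 had means 16.1 and 13.0 times as high in the double samples, with no overlap between the groups. Utrn, Dag1 and Sgcb were higher in both double samples than in every triple sample, by 2.22 to 5.29 times in the mean. Sgca, Sgcd and Dmd overlapped between the groups, because double sample 2 lay among the triple samples or below them. In the fit over all genes 5 of the 9 were called lower in the triple samples, at an adjusted p under 0.05, beside 5.41% of all genes tested (2.94% were called higher). The levels of 5 genes were lower without overlap, beside 11.4% of genes tested, and that of 1 gene was higher without overlap, beside 12.8%. Nothing is read from these counts, since the same contrast was in view when the genes were picked.

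**Figure D1:**
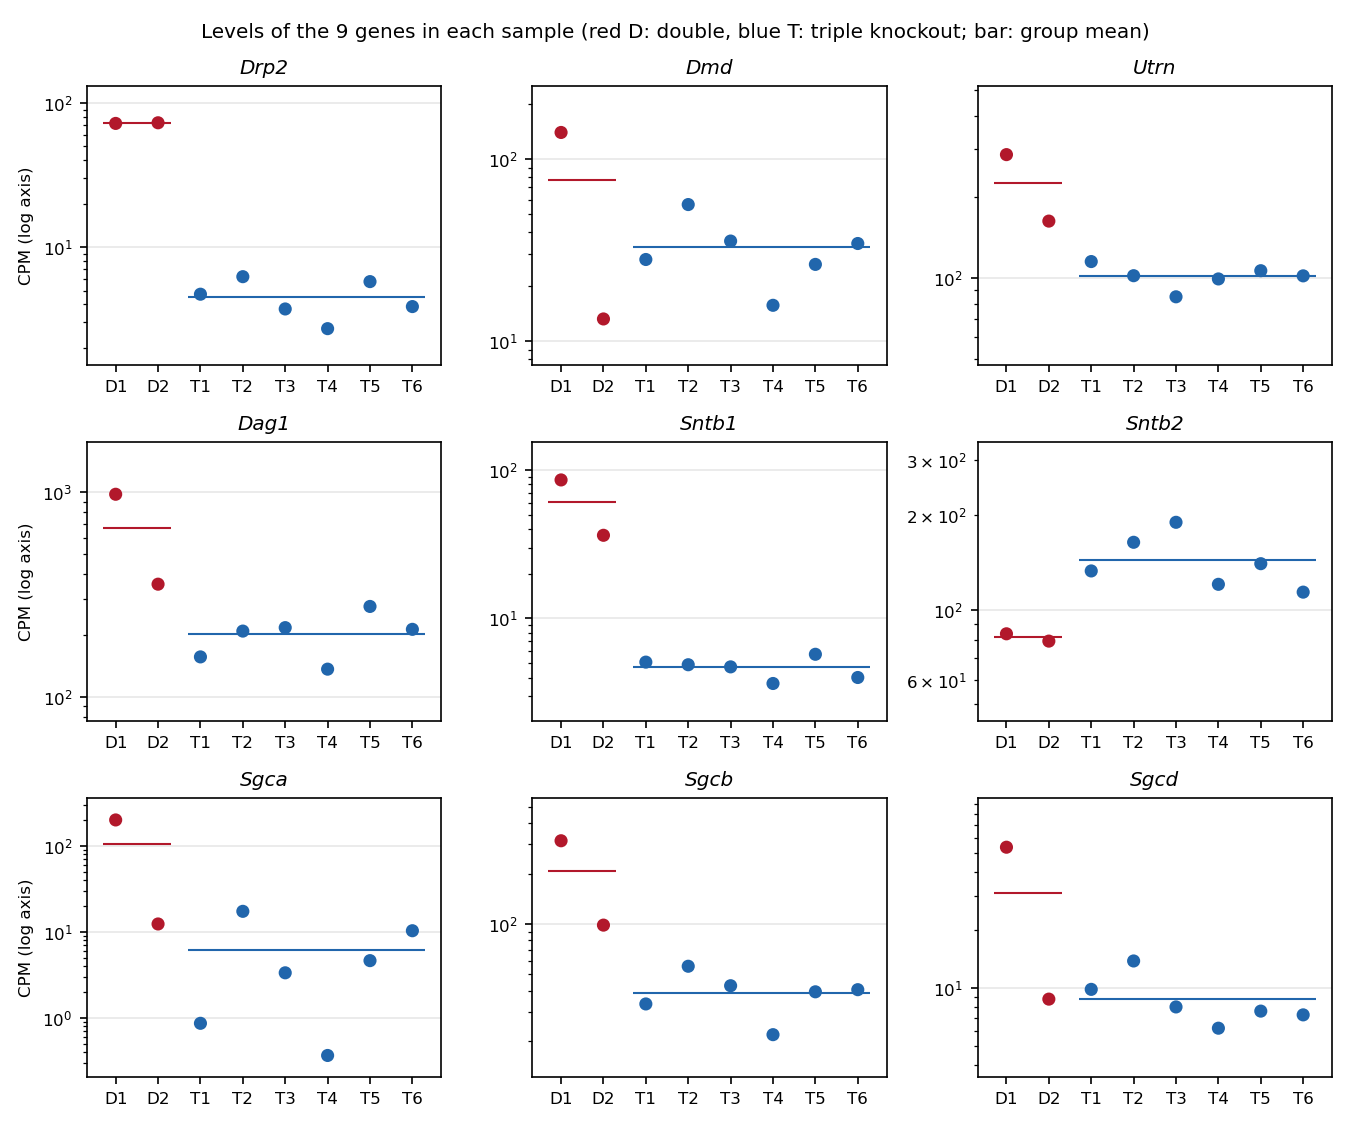
Level of each of the 9 genes in CPM (log axis) in the 2 double (red, D1 and D2) and 6 triple knockout samples (blue, T1 to T6), with bars at the group means. Drp2 and Sntb1 are far apart between the groups, Sntb2 is higher in all 6 triple samples, and for Dmd, Sgca and Sgcd the sample D2 lies at or below some of the triple samples.

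Total counts ran from 26847202 to 32082535 per sample. Levels are given in CPM, a gene's share of the counts scaled to a common total, with TMM factors that correct for differences in RNA composition. Double sample 1 had a factor of 0.771, below the 0.994 to 1.10 of every other sample, and also held the most adult skeletal muscle RNA. The summed level of 14 adult skeletal muscle markers was 75727 CPM in double sample 1 and 3048 CPM in double sample 2, against 144 to 15379.5 CPM in the triple samples, and all 14 were counted in every sample. For 16 embryonic muscle markers the sums were 15830 and 3432 CPM in the double samples and 45.4 to 1149 CPM in the triple samples. Of these 16 genes 13 fell in the triple samples (edgeR adjusted p under 0.05), beside 5.41% of all genes tested, and Mymx was at 0 in at least 1 sample. DESeq2 called 11 of the 16 and limma-voom 12. By edgeR 0 of 14 adult muscle, 0 of 10 Schwann cell and 0 of 9 tested mesothelial markers were called, with 3, 1 and 2 at an unadjusted p under 0.05. DESeq2 called 2, 1 and 0 of them, and limma-voom 0 in each list. Of 10 mesothelial markers 7 had at least 1 read in all 8 samples, and Calb2, Wt1 and Krt19 were at 0 in at least 1. The sum ran from 345 to 1428 CPM in the double and from 134 to 948 CPM in the triple samples. Upk3b, Upk1b, Lrrn4, Wt1 and Krt19 were highest in triple sample 3, at 173, 137, 75.4, 33.2 and 52.9 CPM. In every other sample none of these passed 8.30 CPM. Over the 8 samples Msln ran from 12.6 to 342 CPM, Pdpn from 58.5 to 204, Krt8 from 1.23 to 799 and Krt18 from 6.84 to 203 CPM. The 10 Schwann cell markers summed to 191 to 265 CPM in the double and 150 to 583 CPM in the triple samples, and all 10 were counted in every sample. All 10 leukocyte and all 8 endothelial markers were also counted in every sample. Leukocyte markers summed to 800 and 1765 CPM in double samples 1 and 2 and to 1666 to 2540 CPM in the triple samples. Endothelial markers summed to 394 and 284 CPM in double samples 1 and 2 and to 184 to 449 CPM in the triple samples. By edgeR 2 of 10 leukocyte markers were called higher in the triple samples, beside 2.94% of all genes tested. Of 8 endothelial markers 1 was called lower, beside 5.41%. DESeq2 called 3 leukocyte and 1 endothelial markers, and limma-voom 3 and 0. The targeted gene Bap1 had 106 and 71.2 CPM in double samples 1 and 2, while its level ran from 43.1 to 72.1 CPM in the triple samples (adjusted p = 0.122, edgeR's quasi-likelihood test). Nf2 had 165 and 109 CPM in double samples 1 and 2 and 62.7 to 100.3 CPM in the triple samples, and Cdkn2a had 1.54 and 5.16 CPM against 4.05 to 8.76 CPM (edgeR adjusted p = 0.103 and 0.306). Reads from exons that a deletion spares are counted too, so this checks the labels only weakly.

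RefSeq promoter windows on GRCm38.p6 were on hand for 6 of the 9 genes, 8 windows in all, each of 300 bases from 250 before the start of transcription. Those of Drp2, Sntb1 and Sntb2 were not used here. The windows of 4 genes are shown because their levels followed different patterns among the samples: Dmd and Sgca, which are best known from striated muscle, and Sgcb and Dag1. All are written 5′ to 3′ on the strand of the gene. Capitals mark every match, in each window, to CANNTG (the core of the E-box), the CArG box, GGGCGG or its reverse complement CCGCCC (the GC box), CAGCTG (an E-box form that is also a CANNTG match) and TATAAA or its reverse complement TTTATA.
Dmd, chrX:82948620-82948919, + strand: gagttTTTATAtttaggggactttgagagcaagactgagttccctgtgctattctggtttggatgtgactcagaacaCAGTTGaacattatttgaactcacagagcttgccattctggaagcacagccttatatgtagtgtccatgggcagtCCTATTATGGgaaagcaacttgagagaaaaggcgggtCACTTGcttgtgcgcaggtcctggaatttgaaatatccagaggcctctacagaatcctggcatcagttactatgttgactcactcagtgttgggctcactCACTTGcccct
Sgca, chr11:94976278-94976577, − strand: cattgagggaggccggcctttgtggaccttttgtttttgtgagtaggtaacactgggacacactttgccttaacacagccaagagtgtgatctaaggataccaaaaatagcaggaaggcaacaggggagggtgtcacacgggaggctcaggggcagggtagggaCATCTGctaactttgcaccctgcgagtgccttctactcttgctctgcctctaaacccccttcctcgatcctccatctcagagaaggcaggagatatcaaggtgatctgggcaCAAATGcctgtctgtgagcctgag
Sgcb, chr5:73647688-73647987, − strand: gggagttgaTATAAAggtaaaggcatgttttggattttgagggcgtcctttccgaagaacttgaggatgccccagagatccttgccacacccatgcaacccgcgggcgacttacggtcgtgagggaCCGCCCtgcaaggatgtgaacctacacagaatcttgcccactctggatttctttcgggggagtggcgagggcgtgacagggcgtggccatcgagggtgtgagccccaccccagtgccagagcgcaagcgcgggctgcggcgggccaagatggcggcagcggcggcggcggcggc
Dag1, chr9:108263909-108264208, − strand: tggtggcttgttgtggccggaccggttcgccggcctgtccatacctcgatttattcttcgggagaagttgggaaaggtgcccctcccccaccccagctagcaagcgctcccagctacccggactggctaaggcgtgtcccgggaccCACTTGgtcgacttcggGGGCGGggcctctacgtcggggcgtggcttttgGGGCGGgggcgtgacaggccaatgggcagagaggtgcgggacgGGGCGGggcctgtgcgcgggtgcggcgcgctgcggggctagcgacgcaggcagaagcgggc
The Dmd window, at the most upstream start of the gene, held 3 CANNTG matches and 1 CArG box, which began 98 bases before the start and overlapped none of them. A CArG box was found in 1.63% of all 32851 promoter windows and in none of the other windows of these genes. Sgca held 2 CANNTG matches, one of them 86 bases before the start, but 72.3% of all windows hold at least 1. Dag1 held 3 GGGCGG matches, at 87, 54 and 11 bases before the start, and Sgcb held 1, where 35.7% of all windows hold at least 1. Dag1 also held 1 CANNTG match, 104 bases before the start, and Dmd and Sgcb held 1 TATAAA match each, at 245 and 241 bases before, beside 13.6% of all windows. CAGCTG, found in 16.3% of all windows, was in none of these. Of the windows not shown, that of Utrn held 7 CANNTG matches, that of Sgcd 2 and 1 GGGCGG, the second window of Dmd 3 GGGCGG, overlapping ones included, and the second of Dag1 4 GGGCGG and 1 CANNTG. The starts of transcription of these windows lie inside the genes. From the 5′ end of the gene they are 7630 bases (Utrn), 609644 (Sgcd), 2099425 (Dmd) and 143 bases (Dag1) away. Both strands were searched. GC content was 45.7% for Dmd, 52.7% for Sgca, 62.7% for Sgcb and 69.7% for Dag1. These matches are descriptions of the letters and show no binding.

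Dystrophin and its relatives form the inner anchor of the complex. Drp2 (dystrophin-related protein 2; chromosome X, 134404551 to 134456573, + strand), a short relative of dystrophin known from the complex that Schwann cells form with periaxin, stood at 72.3 CPM in double sample 1 and 73.0 CPM in double sample 2. In the triple samples it ran from 2.72 CPM through a median of 4.29 to 6.24 CPM. Both double samples were alike and lay far above every triple sample. The log2 fold change, triple minus double, was -4.01 ± 0.28 (SE, 2 against 6 samples). It stayed between -4.13 and -3.78 in all 18 alternative fits. Among samples with other description codes than SN930, which hold a single double sample, it was -3.91 and no longer called. Leaving out double sample 1 gave -4.02, and leaving out double sample 2 gave -3.99. Such fits hold a single double sample, which is assumed to vary like the triple samples. Periaxin itself (Prx), named after its values were seen, had 5.99 CPM in double sample 1 and 9.71 CPM in double sample 2. Its triple samples ran from 6.44 to 15.6 CPM and overlapped them, with a log2 fold change of 0.32 ± 0.39 (edgeR adjusted p = 0.613).

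Utrn (utrophin; chromosome 10, 12382188 to 12869365, − strand), the broadly expressed relative of dystrophin, had 287 CPM in double sample 1 and 162 CPM in double sample 2. In the triple samples it ran from 84.9 CPM through 102 to 115 CPM. These 6 samples were the most uniform of any of the 9 genes, with a standard deviation of 9.68% of the mean, and both double samples lay above them. Its log2 fold change was -1.15 ± 0.21, but -0.69 without double sample 1, where it was no longer called.

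Dmd (dystrophin; chromosome X, 82948870 to 85206141, + strand) did not part the groups. It stood at 140 CPM in double sample 1 and at 13.3 CPM in double sample 2, a ratio of 10.6. The triple samples ran from 15.7 CPM through 31.3 to 56.3 CPM. Double sample 2 was thus the lowest of all 8 samples and double sample 1 the highest. The log2 fold change of -1.23 ± 0.68 turned to 1.304 without double sample 1. Counts were summed over the whole gene, so the full-length protein's message and the shorter ones from internal promoters cannot be told apart.

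Measured per kilobase of exon, utrophin was the most abundant of the 3 relatives in every sample. It made up 53.9% and 51.1% of their summed level in double samples 1 and 2 and 65.8% to 85.5% in the triple samples. Drp2 made up 27.2% and 45.9% in the double samples but 4.70% to 8.44% in the triple samples. In double sample 2 the Dmd share was 3.00%, below the 9.78% to 26.2% of the triple samples. Lengths were the union of exons in GENCODE M21, and with the longest transcript in its place the Drp2 shares were 23.7% and 42.2% against 4.04% to 7.24%.

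Dystroglycan links the complex to laminin. Dag1 (chromosome 9, 108204634 to 108263958, − strand) encodes both of its subunits, and its promoter window is the GC-rich one shown above. It stood at 979 CPM in double sample 1 and 356 CPM in double sample 2. The triple samples ran from 137 CPM through 212 to 277 CPM, below both double samples. Triple minus double, the log2 fold change was -1.72 ± 0.36. It was -0.82 without double sample 1 and no longer called there, and it also lost its call without triple sample 1 or 6, at -1.66 and -1.78.

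Syntrophins bind dystrophin and its relatives and carry PDZ domains for channels and signalling proteins. Sntb1 (beta-1 syntrophin; chromosome 15, 55638843 to 55906949, − strand) had 85.5 CPM in double sample 1 and 36.2 CPM in double sample 2. In the triple samples it ran from 3.65 CPM through 4.80 to 5.73 CPM. The 6 triple samples lay close together, with a standard deviation of 16.1% of the mean, and both double samples were well above them. This gave a log2 fold change of -3.70 ± 0.30, with -2.96 without double sample 1 and -4.18 without double sample 2. Among samples with other description codes than SN930, which hold a single double sample, it was -2.90 and no longer called.

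Sntb2 (beta-2 syntrophin; chromosome 8, 106935750 to 107019714, + strand), the other beta form, went the other way. In double samples 1 and 2 it had 83.9 and 79.5 CPM, while the triple samples ran from 114 CPM through 136 to 189.7 CPM. Every triple sample was above both double samples. Its log2 fold change of 0.81 ± 0.23 did not pass the threshold, and it ran from 0.59 to 1.02 over the alternative fits. In double samples 1 and 2 the counts of Sntb2 were 0.98 and 2.19 times those of Sntb1, and in the triple samples they were 24.4 to 40.2 times as high.

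Per kilobase of exon, Sntb2 made up 33.5% and 53.0% of the summed level of the beta syntrophins in double samples 1 and 2, and 92.6% to 95.4% in the triple samples. The corresponding shares with the longest transcript as the length were 32.7% and 52.0%, against 92.4% to 95.2%.

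**Figure D2:**
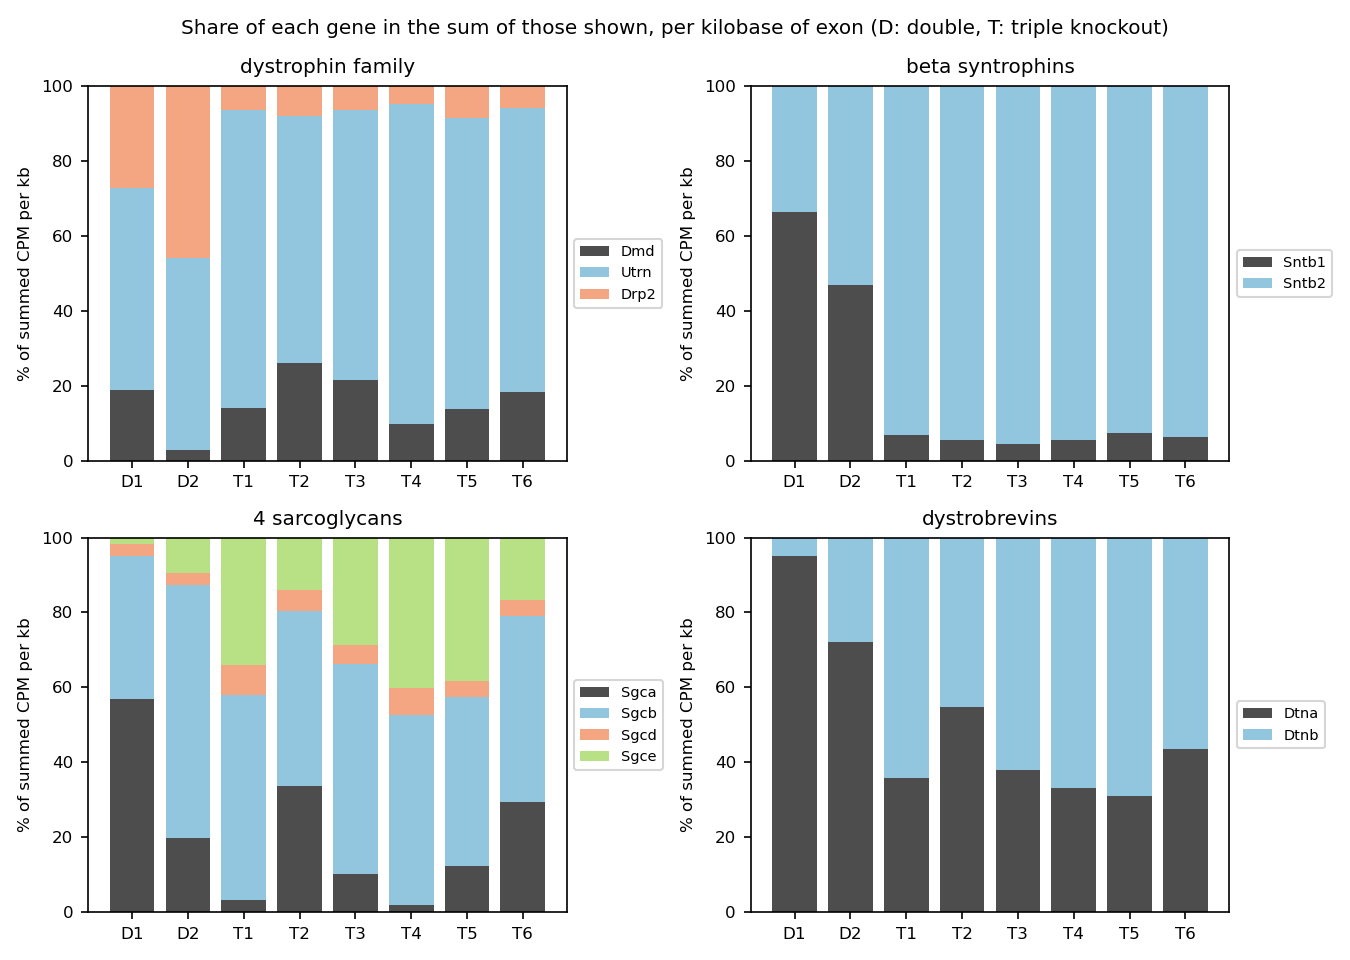
Share of each gene in the summed level of the genes shown in its panel, in percent of CPM per kilobase of exon, in the 2 double (D) and 6 triple knockout samples (T). Drp2 holds 27.2% and 45.9% of the dystrophin family in D1 and D2 and at most 8.44% in T1 to T6, and Sntb2 holds 92.6% to 95.4% of the beta syntrophins in T1 to T6.

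Sarcoglycans are membrane proteins that assemble with one another beside dystroglycan. Sgcb (beta-sarcoglycan; chromosome 5, 73632749 to 73647790, − strand), a core subunit found within muscle and outside it, stood at 314 CPM in double sample 1 and 98.5 CPM in double sample 2. The triple samples ran from 21.8 CPM through 40.0 to 55.95 CPM, all below both double samples. Its log2 fold change was -2.40 ± 0.40, and -1.34 without double sample 1, where it was no longer called.

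Sgca (alpha-sarcoglycan; chromosome 11, 94962791 to 94976327, − strand), the subunit most restricted to striated muscle, was the most variable of the 9 genes. It stood at 200 CPM in double sample 1 and 12.3 CPM in double sample 2, a ratio of 16.2. Triple samples 1 to 6 had 0.86, 17.3, 3.34, 0.36, 4.63 and 10.3 CPM, so the highest was 47.5 times the lowest. Triple sample 2 was above double sample 2, and the groups overlapped. A log2 fold change of -4.11 ± 1.199 did not pass the threshold, and it was -1.003 without double sample 1 and -5.01 without double sample 2.

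Sgcd (delta-sarcoglycan; chromosome 11, 46896253 to 47988969, − strand), which pairs with the beta form early in assembly, had 53.8 CPM in double sample 1 and 8.77 CPM in double sample 2. The triple samples ran from 6.20 CPM through 7.80 to 13.8 CPM. Only double sample 1 stood above them: triple samples 1 and 2, at 9.86 and 13.8 CPM, exceeded double sample 2. The log2 fold change of -1.83 ± 0.53 became 0.00053 without double sample 1. Sgce (epsilon-sarcoglycan), the broadly expressed form, is not among the 9 and was named after its values were seen. For it the double samples had 34.5 and 36.6 CPM and the triple samples ran from 35.6 to 87.2 CPM (edgeR adjusted p = 0.252). Per kilobase, Sgce made up 1.60% and 9.60% of the sum of Sgca, Sgcb, Sgcd and Sgce in double samples 1 and 2, and 14.1% to 40.2% in the triple samples.

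**Figure D3:**
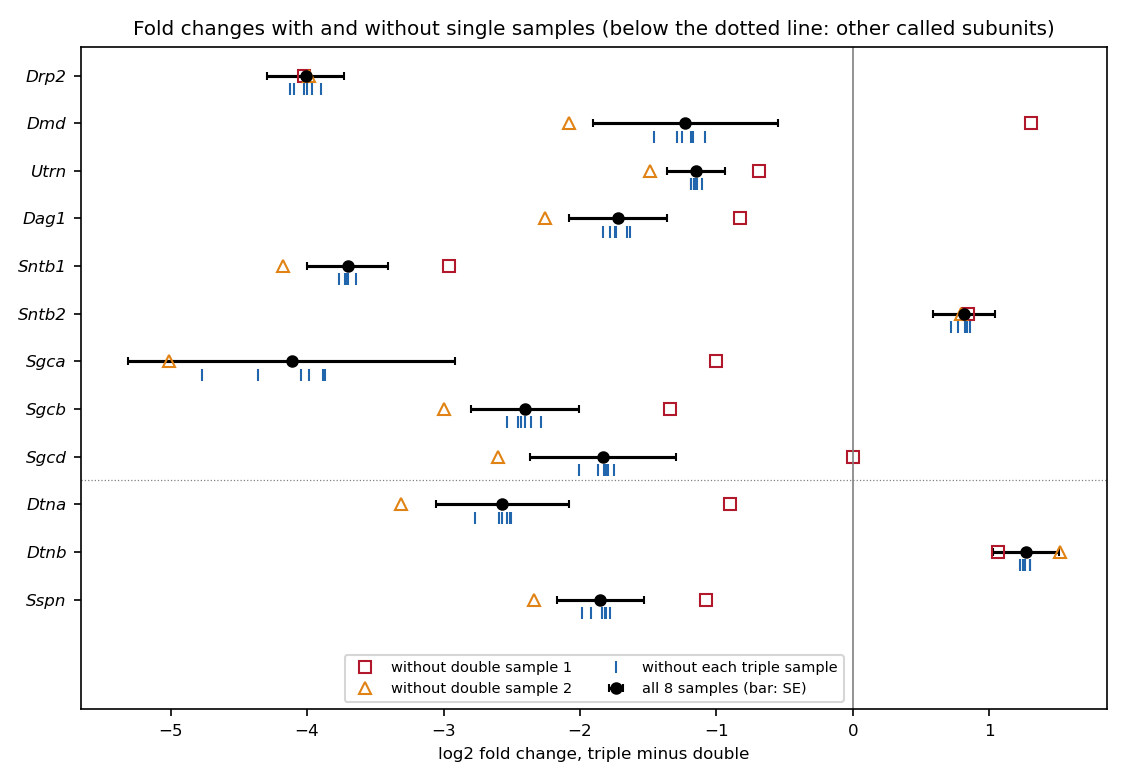
Log2 fold change, triple minus double, of the 9 genes (above the dotted line) and of the 3 other subunits that passed the test, over all 8 samples (black, bar: SE) and without double sample 1 (red squares), double sample 2 (orange triangles) or each triple sample (blue ticks). Drp2 stays at -4.02 and -3.99 without either double sample, while Dmd moves to 1.304 and Sgcd to 0.00053 without double sample 1.

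Compared per kilobase of exon, the order of the 9 genes differed between the groups. In the double samples the mean level fell from Dag1 (105 CPM per kilobase) through Sgca (61.3), Sgcb (50.9), Utrn (13.1), Sntb1 (11.4), Drp2 (8.49), Sntb2 (7.89) and Sgcd (3.79) to Dmd (3.22). In the triple samples it fell from Dag1 (31.8) through Sntb2 (13.9), Sgcb (9.62), Utrn (5.92), Sgca (3.54), Dmd (1.38), Sgcd (1.06) and Sntb1 (0.88) to Drp2 (0.53). Drp2 and Sntb1 were therefore at the bottom of the order in the triple samples. Among the triple samples the range of Dag1, 21.5 to 43.6, lay clear of that of Sntb2, 10.99 to 18.3, and every other pair of neighbours overlapped in range. The order in the double samples rested on double sample 1 for Sgca, which had 115 CPM per kilobase there but 7.12 in double sample 2, below Sgcb (24.3), Utrn (9.49), Drp2 (8.53) and Sntb2 (7.68). Both orders of the means were the same with the longest transcript as the length.

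Adult muscle transcripts differed between samples within each group. Double sample 2 had a lower sum of adult muscle markers (3048 CPM) than triple samples 2, 5 and 6 (15379.5, 5332 and 7161 CPM), but a higher sum of embryonic muscle markers (3432 CPM against at most 1149 CPM). It had 73.0 CPM of Drp2 and 36.2 CPM of Sntb1, where those 3 had at most 6.24 and 5.73 CPM. With the logarithm of that sum as a term in the fit, an alternative added after the data were seen, the log2 fold change was -3.78 for Drp2 and -3.32 for Sntb1. It was -1.64 for Sgcb, -1.62 for Sgca, -1.12 for Dag1, -0.99 for Utrn, -0.94 for Sgcd, 0.21 for Dmd and 0.90 for Sntb2. In that fit Dag1 and Utrn were no longer called and Sgca was. Both comparisons hold the contrast with which the genes were picked, so nothing is read from them on the part of adult muscle RNA. The sum of the embryonic muscle markers was higher in both double samples than in every triple sample, as Drp2 and Sntb1 were. Of the genes in that sum Myf6, Pax7 and Des overlapped between the groups. The sum of 8 smooth muscle markers was also higher, at 1606 and 1707 CPM against 308 to 1177 CPM. Of the 7 tested smooth muscle markers, however, 2 had a negative and 5 a positive log2 fold change. The sum of 7 fibroblast markers was lower in both double samples, at 8835 and 9654 CPM against 9748 to 35187 CPM. The part of embryonic muscle, smooth muscle or fibroblast RNA in these differences was not tested. In bulk RNA, fewer cells of a type and less RNA per cell cannot be told apart.

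Within the 6 triple samples the relation to adult muscle transcripts could be measured apart from the contrast by which the genes were picked. The log2 level of 14 genes, the 9 and 5 other subunits, was set against the log2 sum of the adult muscle markers, a comparison chosen after the data were seen. For Sgca Pearson's r was 0.98 (exact permutation p = 0.00139, 2-sided, the smallest that 720 orders allow; adjusted over the 14 relations 0.0194) and Spearman's rho was 1 (p = 0.00278, adjusted 0.0389, exact permutation). Without triple samples 2 and 4, the farthest from the median of the muscle sum, r was 0.96 over 4 samples.

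Sgcb also followed the muscle sum, by Pearson's r alone. For Sgcb r was 0.94 (exact permutation p = 0.00694, adjusted 0.0486), rho 0.83 (p = 0.0583, adjusted 0.381, exact permutation), and r = 0.65 without triple samples 2 and 4. The other 12 relations did not pass after adjustment. For Dmd r was 0.87 (exact permutation p = 0.025, adjusted 0.117) and rho 0.71 (p = 0.136, adjusted 0.381, exact permutation), but r fell to 0.17 without triple samples 2 and 4. Leaving out the farthest samples narrows the range of the muscle sum and leaves 4 samples. Values of r without them therefore cannot show what a relation rests on. Drp2 gave r = 0.78 (exact permutation p = 0.0708, adjusted 0.198), rho = 0.71 (adjusted 0.381) and r = 0.03 without them. Sntb1 gave r = 0.49 (exact permutation p = 0.315, adjusted 0.508), rho = 0.26 (adjusted 0.768) and r = -0.27 without them. For Utrn r was 0.01 (exact permutation p = 0.985, adjusted 0.986) and rho 0.14 (adjusted 0.803). Dag1 had r = 0.81 (exact permutation p = 0.0639, adjusted 0.198) and rho = 0.49 (adjusted 0.587), and r stayed at 0.79 without triple samples 2 and 4. Sgcd had r = 0.58 (exact permutation p = 0.229, adjusted 0.458) and rho = 0.43 (adjusted 0.587), but r = -0.95 without triple samples 2 and 4. All values share the TMM scaling of their sample, and each set of description codes holds 3 triple samples, too few to repeat the relation within it.

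**Figure D4:**
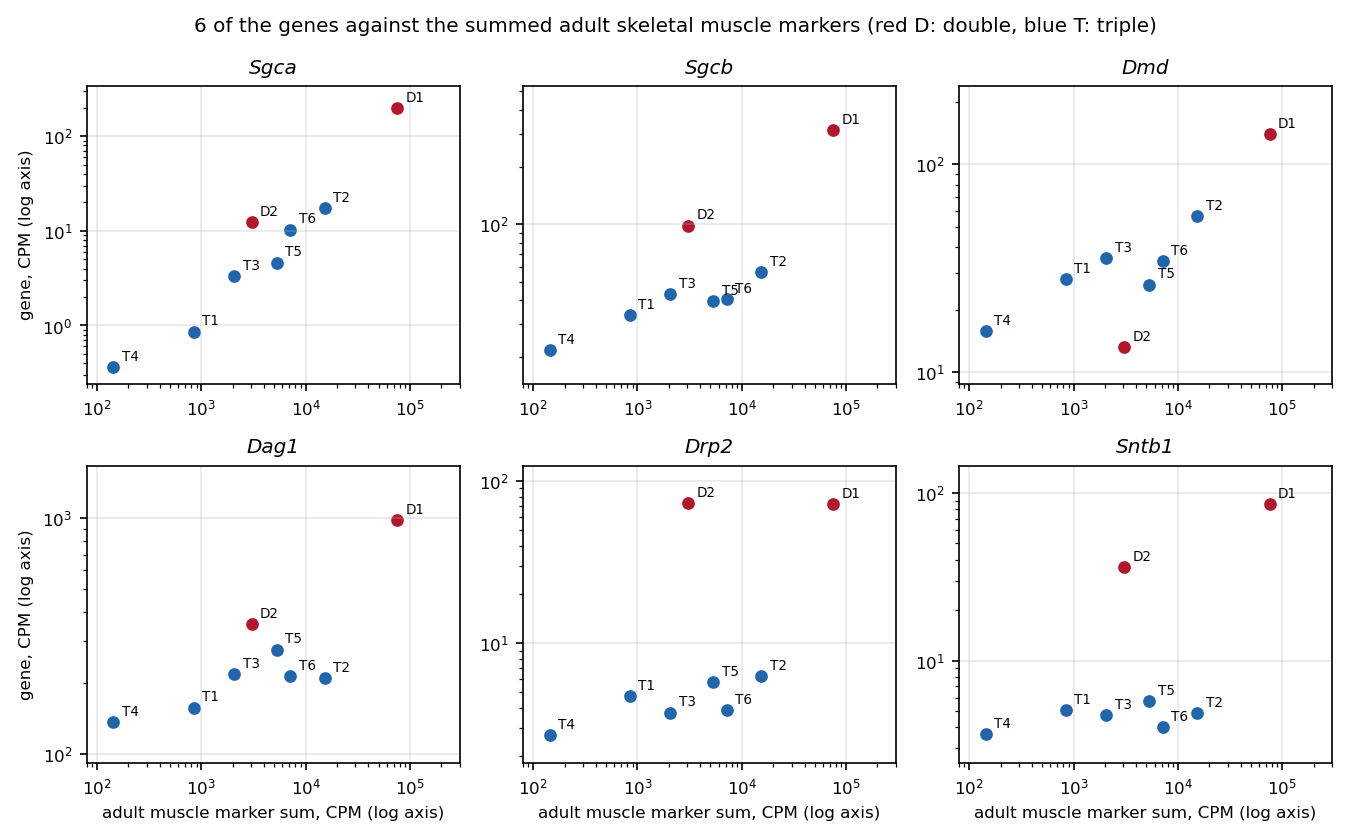
Level of 6 of the genes (CPM, log axis) against the summed level of 14 adult skeletal muscle markers (CPM, log axis) in the double (red, D1 and D2) and triple knockout samples (blue, T1 to T6). Among the blue points Sgca rises in the order of the muscle sum (rho = 1), and D2, with a sum of 3048 CPM, has 73.0 CPM of Drp2 and 36.2 CPM of Sntb1.

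The profiles most like those of Drp2 and Sntb1 were sought among 13336 genes with a mean of at least 1 CPM, by the mean absolute difference of centred log2 levels over the 8 samples. The contrast that picked the genes is part of this likeness, which is given as a description. Closest to Drp2 was Rapsn, the rapsyn gene, whose product clusters acetylcholine receptors at the neuromuscular junction, with a mean difference of 0.23 on the log2 scale, followed by Lzts1 (0.32) and Sntb1 itself (0.33). Closest to Sntb1 were Strip2 (0.23), Rapsn (0.25) and Socs2 (0.31), a feedback inhibitor of cytokine signalling. Rapsn had 59.9 and 36.8 CPM in double samples 1 and 2, where the triple samples ran from 2.79 to 5.83 CPM. Like Drp2 and Sntb1, it had no overlap between the groups, which is part of the likeness by which it was chosen. Of all genes tested, 11.4% were lower in the triple samples without overlap.

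Genes around the complex were taken from 5 lists: the other subunits, the enzymes that glycosylate dystroglycan, its extracellular ligands, cytoplasmic partners, and other laminin receptors. Of 63 genes reported from them 59 were tested. In the triple samples 6 fell and 2 rose, and 51 were not called (edgeR, adjusted p under 0.05 over all genes tested). That is 8 of 59, beside 8.35% of all genes tested, and their median log2 fold change was 0.04 beside 0.02 over all genes. Without double sample 1 only 1 of these genes, Itga7, was called, and without double sample 2 there were 21.

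Of the other subunits 5 were tested: Sspn and Dtna fell, Dtnb rose and the remaining 2 did not pass, with a median of 0.60. Sspn (sarcospan) had 194 and 79.6 CPM in double samples 1 and 2, and 29.0 to 54.5 CPM in the triple samples, with a log2 fold change of -1.85 ± 0.32 (edgeR adjusted p = 0.0141). Dtna (alpha-dystrobrevin), typical of muscle and brain, fell with a log2 fold change of -2.57 ± 0.49 (edgeR adjusted p = 0.0201). It had 273 and 50.8 CPM in double samples 1 and 2, where the triple samples ran from 21.3 to 44.4 CPM. Dtnb (beta-dystrobrevin), the form found mainly outside muscle, rose by 1.27 ± 0.24 on the log2 scale (edgeR adjusted p = 0.0201). Double samples 1 and 2 had 8.22 and 11.1 CPM and the triple samples 18.6 to 27.0 CPM, with no overlap. Without double sample 1 Sspn was at -1.08 (adjusted p = 0.141), Dtna at -0.90 (0.344) and Dtnb at 1.06 (0.107). All 3 also lost their calls with the muscle term (0.0698, 0.107 and 0.0538), Dtna with limma-voom (0.0575) and with the description code as a term (0.0524), and Dtnb among the samples with code SN930 (0.0662).

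The dystrobrevins thus changed in opposite directions, and their shares shifted between the groups. Per kilobase Dtna made up 95.0% and 72.1% of the pair in double samples 1 and 2, and 30.9% to 54.9% in the triple samples. The highest of these was triple sample 2, which also had the highest adult muscle sum of the triple samples. Over the 6 triple samples, however, the relation of Dtna levels to that sum did not pass (r = 0.63, exact permutation p = 0.185, adjusted 0.431).

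Of 17 enzymes that build the laminin-binding glycan of dystroglycan, B4gat1 alone fell and the other 16 did not pass, with a median of 0.18. It encodes a glucuronyltransferase and had 56.6 and 42.7 CPM in double samples 1 and 2, where the triple samples ran from 22.6 to 34.3 CPM, with a log2 fold change of -0.82 ± 0.20 (edgeR adjusted p = 0.0416). It lost its call without double sample 1 (adjusted p = 0.281) and without triple sample 1, 2, 4, 5 or 6 (0.0622 to 0.0775). The call was also lost with limma-voom (0.0515), upper-quartile scaling (0.0637), no filter (0.0684), the description code as a term (0.0627), code SN930 alone (0.0619) and the muscle term (0.153). The log2 fold changes of the other enzymes lay between -0.45 for Pomgnt1 and 1.38 for Gmppb, both named after their values were seen.

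Of 13 ligands of dystroglycan 1 fell and 12 did not pass, with a median of 0.66. Lama5, a laminin alpha chain of epithelial basement membranes, had 118 and 158 CPM in double samples 1 and 2, and 15.2 to 42.1 CPM in the triple samples, with a log2 fold change of -2.21 ± 0.37 (edgeR adjusted p = 0.0129). Without double sample 1 it was at -2.42 and its call was lost (adjusted p = 0.05001), as it was among the samples with code SN930 (0.0992). Lama2, the alpha chain of muscle basement membrane, had 347 and 104 CPM in double samples 1 and 2 and 34.4 to 129.9 CPM in the triple samples (edgeR adjusted p = 0.104, chosen after its values were seen).

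Among 18 tested cytoplasmic partners Cav3 fell, Ank2 rose and 16 did not pass, with a median of -0.66. Cav3 (caveolin 3), the caveolin of muscle, fell with a log2 fold change of -4.89 ± 1.04 (edgeR adjusted p = 0.0282). Double samples 1 and 2 had 209.6 and 22.2 CPM, and the triple samples 0.33 to 12.03 CPM. With the muscle term Cav3 was at -2.89 and kept its call (edgeR adjusted p = 0.00431). It was at -2.50 without double sample 1 and at -2.03 among samples with other description codes than SN930. In neither of these fits, which hold a single double sample, was Cav3 called. By edgeR it also lost its call without triple sample 1, 3, 5 or 6 (adjusted p 0.0576 to 0.0619). The same held with the description code as a term (0.0725). DESeq2 gave no adjusted p for Cav3. Ank2 (ankyrin B), an adaptor that helps place dystrophin at the membrane, rose by 0.94 ± 0.24 on the log2 scale (edgeR adjusted p = 0.0447). All triple samples, at 32.8 to 58.4 CPM, were above the 24.2 and 21.9 CPM of double samples 1 and 2. The call was lost without either double sample (adjusted p = 0.158 and 0.0659) and without triple sample 1, 2, 3, 5 or 6 (0.0584 to 0.0864). Limma-voom (0.0666), no filter (0.0569), the description code as a term (0.0640), code SN930 alone (0.174) and the muscle term (0.0516) did not call it either.

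Of 6 laminin receptors outside the complex 1 fell and 5 did not pass. Itga7, the integrin alpha chain that binds laminin in muscle, had 832 and 337 CPM in double samples 1 and 2 and 13.2 to 54.1 CPM in the triple samples, with a log2 fold change of -4.37 ± 0.55 (edgeR adjusted p = 0.00457). It kept its call without double sample 1, at -3.58 (adjusted p = 0.0398). Its partner Itgb1, the common beta chain, had 1844 and 1281 CPM in double samples 1 and 2, where the triple samples ran from 949 to 1155 CPM (edgeR adjusted p = 0.0974, chosen after its values were seen).

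**Figure D5:**
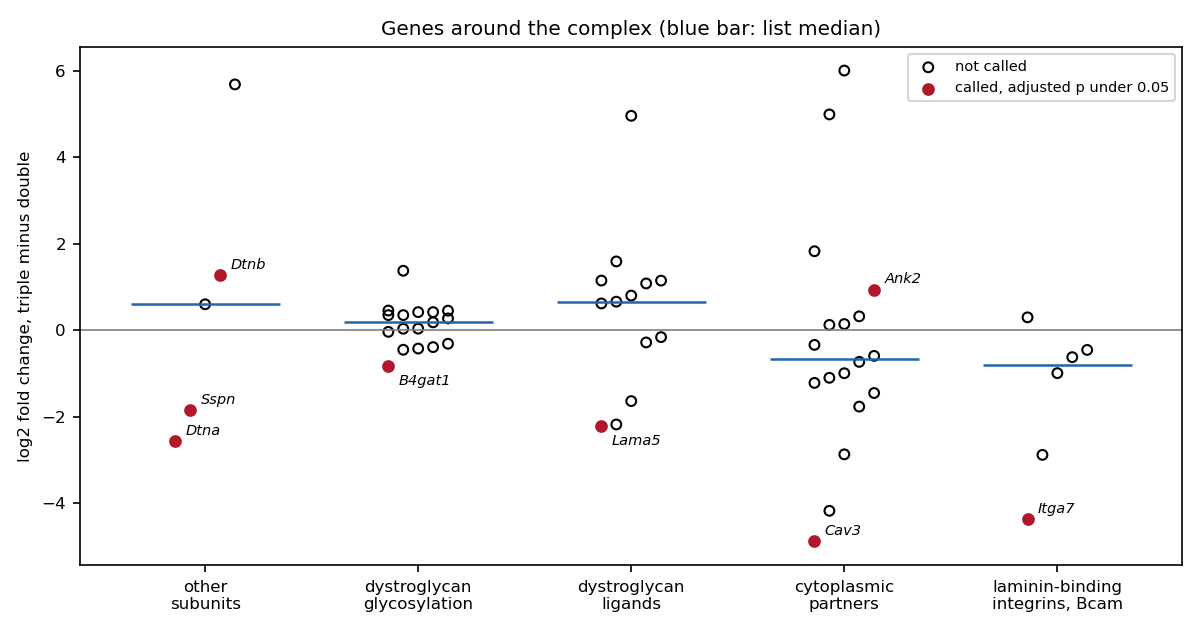
Log2 fold change, triple minus double, of 59 tested genes around the complex in 5 lists (open circles: not called; red: called at edgeR adjusted p under 0.05; blue bar: list median). The glycosylation enzymes lie between -0.82 and 1.38 with a median of 0.18, and Itga7 and Cav3, at -4.37 and -4.89, are the lowest called genes.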

How the data were processed

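Each sample has 1 table of read counts by gene with coordinates, deposited by the authors as unnormalized whole numbers. Per the submitters' processing notes, HTSeq, DESeq2, mm10 and GRCm38 were used, with no role or order given. Aligner, annotation release and strand setting: not given in the sources used here. Reads of a gene and of one overlapping it on either strand are therefore not separable. No gene that overlaps one of the 9 shares exon bases with it in GENCODE M21. Symbols were found for 52403 of 52636 genes, and 49907 had M21 coordinates once 1 was added to the start. The end of Sntb1 differs, so the length used for it is that of M21.

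In edgeR 4.0.16 (R 4.3.3), genes were kept by filterByExpr, libraries were scaled with TMM, and the quasi-likelihood test compared triple with double knockouts in a fit of the 8 samples without covariates. P-values were adjusted by Benjamini-Hochberg over 17709 genes. SEs were derived from the test statistic. No 2 samples of a group were alike within counting noise: the median over genes of the chi-square per gene was 8.33 or more in each pair. Replicates were numbered in accession order. The scripts were tested on simulated data.

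Alternatives were DESeq2 1.42.0, limma-voom (limma 3.58.1), RLE and upper-quartile scaling, no filter, a minimum of 1 CPM in 2 or more libraries, the description code (SN930 or another) as a term or as a subset, and leaving out each sample. Double sample 1 had code SN930 and double sample 2 another code. A difference between these samples therefore cannot be told apart from a difference between codes.

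Named were the 9 genes, the targeted genes, up to 4 called genes of each list or the 2 of smallest p where none was called, and 3 genes each most like Drp2 and Sntb1. Members and lists were chosen with earlier results of these data known. Some genes of these lists are not reported here and stand outside the counts, medians and shares given.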

Additional observations from a re-analysis of the deposited data

Results flagged for a closer look

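In 24 genes the highest and lowest of the 6 triple samples were compared with the others, a check that flags about 1 in 20 groups by chance. Dtna stood at 44.4 CPM in triple sample 2, apart from the other 5. Cav3 was likewise highest in triple sample 2, at 12.03 CPM. That sample had the highest adult muscle sum of the triple samples, 15379.5 CPM. For Dtna the relation to that sum over the 6 triple samples gave r = 0.63 (exact permutation p = 0.185, adjusted 0.431). Without triple samples 2 and 4 it gave r = -0.17. For Cav3 no such relation was measured. Nf2, a targeted gene, was lowest in triple sample 4, at 62.7 CPM. None of the 9 genes had such a sample.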

How the results depend on the processing

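No paired analysis was possible because the replicate numbers were given in accession order and pair no samples. Over all genes 1478 were called, against 3380 with DESeq2, 962 with the description code as a term, 586 with the adult muscle sum as a term (added after the data were seen) and 1 among samples with other codes than SN930, which hold a single double sample (2506 at an unadjusted p under 0.05). Leaving out 1 sample gave 315 (without double replicate 1) to 5579 (without double replicate 2). Of the genes around the complex 8 were called, against 17 with DESeq2, 5 with limma-voom, 4 with the code as a term, 5 with the muscle term and 0 by edgeR among samples with other codes (9 at an unadjusted p under 0.05). Leaving out 1 sample gave 1 to 21. Dmd changed sign to 1.304 without double replicate 1 (-2.08 without double replicate 2), 1.59 among samples with other codes and 0.21 with the muscle term. Sgcd changed to 0.00053 without double replicate 1 (-2.60 without double replicate 2) and 0.26 among samples with other codes. The fits without double replicate 1 and among other codes share double replicate 2 as their only double sample. They are thus no separate checks. Of the 9 genes 5 were called, and 8 with DESeq2, which added Sgca, Sgcd and Sntb2. These calls come from the contrast with which the genes were picked and support nothing.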
